A study of Homo sapiens with 6 samples.

Results

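The transcription factor NF-kB was followed through 10 genes: its subunits RELA, RELB, NFKB1 and NFKB2, the inhibitors NFKBIA and TNFAIP3, the chemokines CXCL8 and CCL20, and the further targets ICAM1 and TNFAIP2. These were chosen by name, with earlier results of these data known. All 10 were found by exact symbol among the 43424 symbols counted and all passed the filter on low counts, with 13198 genes tested in all. RNA came from HepG2, an established human liver cancer line with many hepatocyte traits, labelled wild type. There were 3 cultures given 10 µM tamarixetin, an O-methylated quercetin, for 24 h, and 3 control cultures with treatment given as none and no vehicle named. The protocol, worded alike for every sample, names 1% serum for the tamarixetin step where growth medium had 10%, and does not describe the control medium over those hours separately. If serum or vehicle differed between the groups, that could not be told apart from the compound. The labels call the cultures of a group biological replicates, and all come from 1 cell line.

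NF-kB is a family of dimers. In resting cells the dimers are held in the cytoplasm by IkB proteins such as IkB-alpha, the product of NFKBIA. Receptors for TNF, IL-1 and microbial products switch on the IKK kinases, which mark IkB for destruction, and the freed dimers enter the nucleus and switch on chemokines, adhesion molecules and their own inhibitors NFKBIA and TNFAIP3. RELA with NFKB1 (p50, cut from p105) serves this canonical route, and RELB with NFKB2 (p52, cut from p100) the slower alternative route. Much of this control acts on protein and its location, which RNA counts do not measure.

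Because NF-kB reads its targets through DNA, the promoters of the members were searched in the RefSeq windows of GRCh38.p14, which run from 250 bases before to 50 bases after a transcription start. Of the 10 members, 9 had windows, 13 in all, and RELB had none in the table. On both strands, the kappaB consensus (10 letters, called by its name here) was found in 6 of the 13 windows, from 5 genes, against 11.3% of all 35116 windows. A shorter form, GGANNTTCC, was found in 6 of the 13 windows, from 6 genes, against 4.56% of all. The forms can overlap and often covered the same bases, and either stood in 8 windows from 7 genes. The AP-1 motif TGANTCA, added after the data were seen, was found in 1 member window against 7.71% of all. The members are textbook NF-kB genes, so that these shares describe how they were chosen. A match is a match of letters and not evidence of binding.

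Upstream stretches of 150 bases, each ending just before the start, are shown for 4 genes because they belong to both chemokines, to the inhibitor and to the subunit NFKB1. Bases are written 5′ to 3′ on the strand of the gene, and capitals mark matches to either NF-kB motif.
CCL20 (chr2:227813692-227813841, plus strand): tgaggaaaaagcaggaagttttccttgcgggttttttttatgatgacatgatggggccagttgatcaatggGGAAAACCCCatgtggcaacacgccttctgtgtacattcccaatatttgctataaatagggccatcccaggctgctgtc
CXCL8 (chr4:73740419-73740568, plus strand): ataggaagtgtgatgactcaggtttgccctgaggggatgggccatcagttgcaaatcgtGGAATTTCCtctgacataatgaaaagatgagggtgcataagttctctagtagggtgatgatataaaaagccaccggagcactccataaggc
NFKBIA (chr14:35404750-35404899, minus strand): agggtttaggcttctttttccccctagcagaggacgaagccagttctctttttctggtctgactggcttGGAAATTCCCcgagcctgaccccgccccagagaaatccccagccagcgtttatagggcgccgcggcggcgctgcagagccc
NFKB1 (chr4:102501209-102501358, plus strand): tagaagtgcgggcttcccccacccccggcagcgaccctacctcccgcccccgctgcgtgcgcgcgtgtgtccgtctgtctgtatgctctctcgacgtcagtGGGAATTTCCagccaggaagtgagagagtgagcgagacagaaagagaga
The matches began at base -79 in CCL20, -91 in CXCL8, -81 in NFKBIA and -49 in NFKB1, counted back from the start. CXCL8 held only the shorter form among the NF-kB motifs, with the AP-1 letters 5′ of it from base -137, while CCL20 held only the kappaB consensus and no AP-1 letters. NFKBIA held the shorter form again from base -242. In TNFAIP3 the consensus matched from bases -67 and -55. ICAM1 held the shorter form from base -186. NFKB2 had matches at both of its later starts and none at the first. Neither motif was found at the second NFKB1 start, in the RELA windows or in the TNFAIP2 window.

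**Figure D1:**
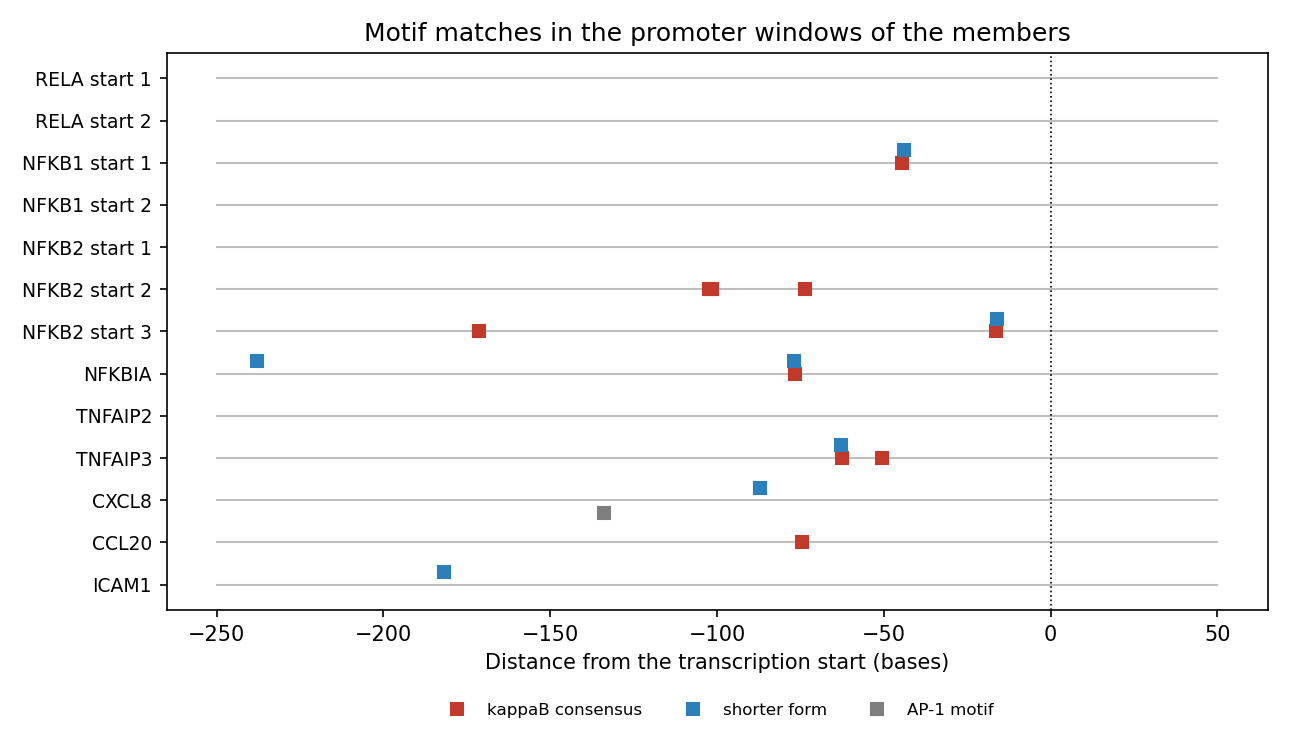
Positions of motif matches in the 13 promoter windows of 9 members; the x axis is the distance from the transcription start in bases and each line is 1 window from 250 bases before to 50 bases after it. Red squares mark the kappaB consensus, blue squares the shorter form and the grey square the AP-1 motif. TNFAIP2, both RELA windows, the first NFKB2 start and the second NFKB1 start carry none.

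Across the members, tamarixetin cultures had more CCL20 and TNFAIP2 RNA, and less NFKBIA and NFKB1 RNA, than control cultures. RELA, RELB, NFKB2, TNFAIP3, CXCL8 and ICAM1 did not pass the test. The call rate, 4 of 10, is near the rate for all genes, 43.7% (22.4% higher and 21.3% lower), so that the count is not a result about NF-kB, and the members differ in size and direction. Their median log2 fold change was 0.13, against 0.00038 over all genes tested. Tests were quasi-likelihood fits in edgeR, with p adjusted by Benjamini-Hochberg over all 13198 genes and a threshold of 0.05. Levels are CPM, counts brought to a common library size with TMM factors. The 3′ libraries read about 1 fragment per transcript, so that CPM can be set side by side between genes without a length term. In RNA from whole cultures, fewer expressing cells and less RNA per cell cannot be told apart.

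**Figure D2:**
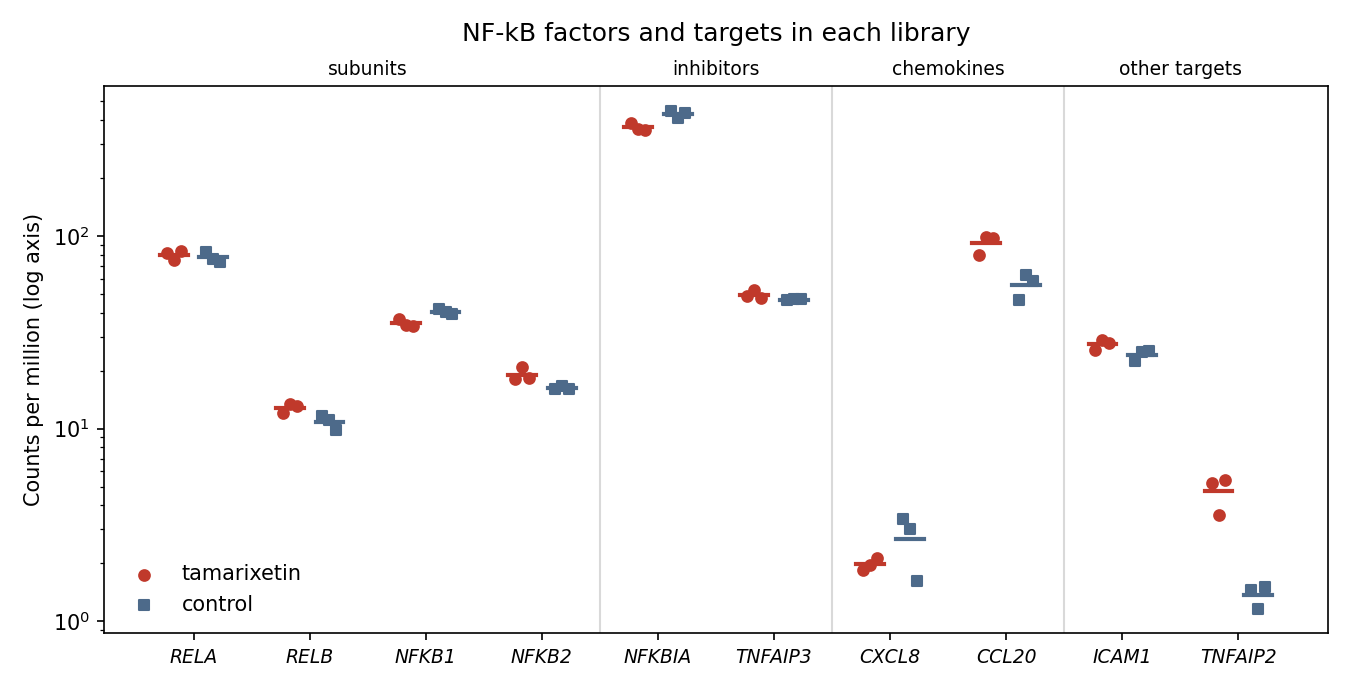
Levels in CPM on a log axis for each member in each library, with circles for the 3 tamarixetin cultures, squares for the 3 control cultures and lines for group means. CCL20 and TNFAIP2 lie higher in every tamarixetin library than in any control library, and NFKBIA and NFKB1 lower.

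Of the subunits, only NFKB1 passed the test. NFKB1 encodes p105 and p50 (chr4:102501359-102617302, plus strand) and had a kappaB match at its first start but not at its second. Its level was 37.2, 34.4 and 34.0 CPM in tamarixetin cultures, against 41.8, 40.4 and 39.2 CPM in control cultures. All 3 tamarixetin values lay below all control values. It fell by 0.20 on the log2 scale (SE 0.078, edgeR adjusted p = 0.0305), to 0.871 of the control level. That call was lost without tamarixetin replicate 2 (adjusted p = 0.102) or 3 (0.104), without control replicate 1 (0.0902) or 2 (0.0523), with scaling by library size alone (0.0794), without the low-count filter (0.0628) and in DESeq2 (0.0515), always in the same direction.

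NFKB2, which encodes p100 and p52 (chr10:102394110-102402529, plus strand), had 18.0, 20.8 and 18.4 CPM in tamarixetin cultures, against 16.0, 16.6 and 16.0 CPM in control cultures. The ranges did not overlap, yet the log2 fold change of 0.23 (SE 0.11) missed the threshold (edgeR adjusted p = 0.0782) and passed it only with scaling by library size alone (0.0396). Non-overlap by itself is common here, at 50.5% of all genes tested.

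RELB, the partner of p52 (chr19:45001464-45038192, plus strand), had 12.1, 13.4 and 13.1 CPM in tamarixetin cultures, against 11.6, 11.1 and 9.84 CPM in control cultures. Its log2 fold change was 0.25 (SE 0.13, edgeR adjusted p = 0.130), with a 95% interval of the fold from 0.987 to 1.42. RELA, the p65 subunit of the canonical dimer (chr11:65653601-65663857, minus strand), had the most RNA of the subunits, at 79.9 ± 4.21 CPM in tamarixetin and 77.3 ± 4.58 CPM in control cultures (SD, n = 3 each). The groups overlapped, and the 95% interval of its fold ran from 0.954 to 1.12 (edgeR adjusted p = 0.548).

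Of the inhibitors, NFKBIA fell and TNFAIP3 did not pass the test. NFKBIA (chr14:35401513-35404749, minus strand) encodes IkB-alpha, which binds RELA dimers and is itself switched on by them. Its level was 386, 357 and 355 CPM in tamarixetin cultures, against 443, 409 and 436 CPM in control cultures. Every tamarixetin library lay below every control library. The log2 fold change was -0.23 (SE 0.037, edgeR adjusted p = 1.48e-07), a fold of 0.853 with a 95% interval from 0.810 to 0.898.

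TNFAIP3 (chr6:137866349-137883312, plus strand) encodes A20, a ubiquitin-editing enzyme that shuts off signalling upstream of IKK. It had 47.5 to 52.3 CPM in tamarixetin cultures, against 46.4 to 47.1 CPM in control cultures. Its log2 fold change was 0.086 (SE 0.070, edgeR adjusted p = 0.341), and the 95% interval of the fold ran from 0.963 to 1.17. These feedback inhibitors, both with kappaB letters just upstream of the start, thus had fold intervals that did not meet.

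The chemokines differed in level and in change. CCL20 (chr2:227813842-227817556, plus strand) encodes the ligand of CCR6, which draws Th17 cells and immature dendritic cells. Its level was 79.1, 98.1 and 97.9 CPM in tamarixetin cultures, against 46.4, 62.8 and 58.0 CPM in control cultures. The lowest tamarixetin culture stood above the highest control culture, and the first replicate was the lowest of its group in each. CCL20 rose by 0.72 on the log2 scale (SE 0.067, edgeR adjusted p = 1.38e-16), a fold of 1.65 with a 95% interval from 1.50 to 1.81. Its cultures spread more than counting alone gives, with a coefficient of variation of 11.9% in tamarixetin and 15.1% in control cultures, where counting would give 2.82% and 3.57%. The DESeq2 Wald test gave CCL20 a wider SE of 0.16 on the log2 scale and an adjusted p of 3.55e-05, the highest of 14 alternatives, of which the lowest was 3.56e-30.

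CXCL8 (chr4:73740569-73743716, plus strand) encodes interleukin-8, which draws neutrophils. It was near the limit of these libraries, with 29, 27 and 26 counts in tamarixetin cultures, against 49, 36 and 26 counts in control cultures. In CPM these were 1.86, 1.95 and 2.14 in tamarixetin cultures, against 3.39, 3.00 and 1.63 in control cultures. The tamarixetin values lay inside the control range, and control replicate 3 alone was below them. The log2 fold change of -0.42 (SE 0.32) was not past the threshold (edgeR adjusted p = 0.296), and the 95% interval of the fold was wide, from 0.485 to 1.16. The sign was negative in each of 13 alternatives, between -0.70 without control replicate 3 and -0.20 without control replicate 1.

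Among the further targets, TNFAIP2 rose most of all members. TNFAIP2 (chr14:103121469-103137439, plus strand), first found as a TNF-induced gene of endothelial cells and linked to membrane protrusions, had 81, 49 and 66 counts in tamarixetin cultures, against 21, 14 and 24 counts in control cultures. This was 5.20, 3.55 and 5.44 CPM in tamarixetin cultures, against 1.45, 1.17 and 1.50 CPM in control cultures. The groups were far apart for so low a level. The log2 fold change was 1.76 (SE 0.28, edgeR adjusted p = 1.04e-07), a fold of 3.39 with a 95% interval from 2.30 to 5.01. It was too low to be tested where 5 CPM in 3 libraries was required.

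ICAM1 (chr19:10271120-10286615, plus strand), the adhesion molecule that leukocytes bind, had 25.7, 28.7 and 28.0 CPM in tamarixetin cultures, against 22.5, 24.8 and 25.3 CPM in control cultures. The groups did not overlap, but the log2 fold change of 0.18 (SE 0.093) was not past the threshold (edgeR adjusted p = 0.111). GENCODE 29 places antisense genes over parts of ICAM1 and TNFAIP3 and a noncoding gene on the other strand of RELA, and the strand setting of the counting is not stated, so reads from these partners cannot be told apart.

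**Figure D3:**
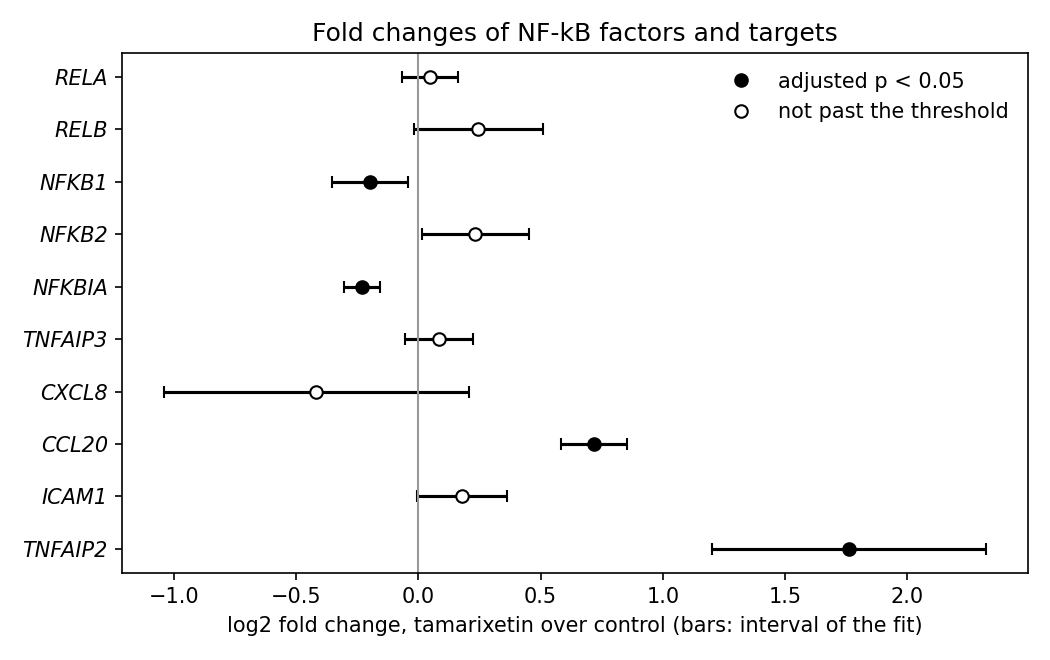
Log2 fold changes of the 10 members, tamarixetin over control, with 95% intervals as bars; filled points passed an adjusted p of 0.05 and open points did not. TNFAIP2 (1.76) and CCL20 (0.72) lie right of zero, NFKBIA (-0.23) and NFKB1 (-0.20) left of it.

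NFKBIA made up 53.2% of all member counts in tamarixetin cultures and 60.9% in control cultures. In tamarixetin cultures the order by mean CPM ran NFKBIA, CCL20, RELA, TNFAIP3, NFKB1, ICAM1, NFKB2, RELB, TNFAIP2 and CXCL8, and only CCL20 and RELA, as neighbours, had ranges that overlapped. Control cultures had RELA above CCL20, with CCL20 and TNFAIP3 overlapping, and CXCL8 above TNFAIP2 at the low end. All other places were the same. Thus CCL20 and TNFAIP2 each moved up 1 place.

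Ratios between members within a library need no scaling, and 6 were formed after the data were seen. They share genes and do not count as independent. With 3 against 3 cultures the exact two-sided permutation test cannot go below p = 0.1, and all 6 ratios, whose groups did not overlap, gave p = 0.1 (0.1 after adjustment over the 6). NFKB2 stood at 0.543 ± 0.0592 counts per NFKB1 count in tamarixetin cultures and 0.401 ± 0.0151 in control cultures (SD, n = 3 each). RELB per RELA was 0.161 ± 0.0152 in tamarixetin and 0.140 ± 0.00589 in control cultures. Both ratios were higher in tamarixetin cultures, by 0.43 and 0.20 on the log2 scale. RELA, RELB and NFKB2 did not pass the test singly, and a shift between the routes was not tested.

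NFKBIA per RELA, the inhibitor against its main partner, was 4.59 ± 0.286 in tamarixetin and 5.56 ± 0.323 in control cultures. Between the feedback inhibitors, TNFAIP3 per NFKBIA was 0.136 ± 0.00987 in tamarixetin and 0.109 ± 0.00545 in control cultures. CCL20 per NFKBIA was 0.252 ± 0.0406 in tamarixetin and 0.130 ± 0.0245 in control cultures. CCL20 per CXCL8 was 42.6, 50.2 and 45.7 in tamarixetin cultures, against 13.7, 20.9 and 35.6 in control cultures. The control ratios spread more, at 23.4 ± 11.2 against 46.1 ± 3.84 in tamarixetin cultures, and the cause of that spread was not tested.

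**Figure D4:**
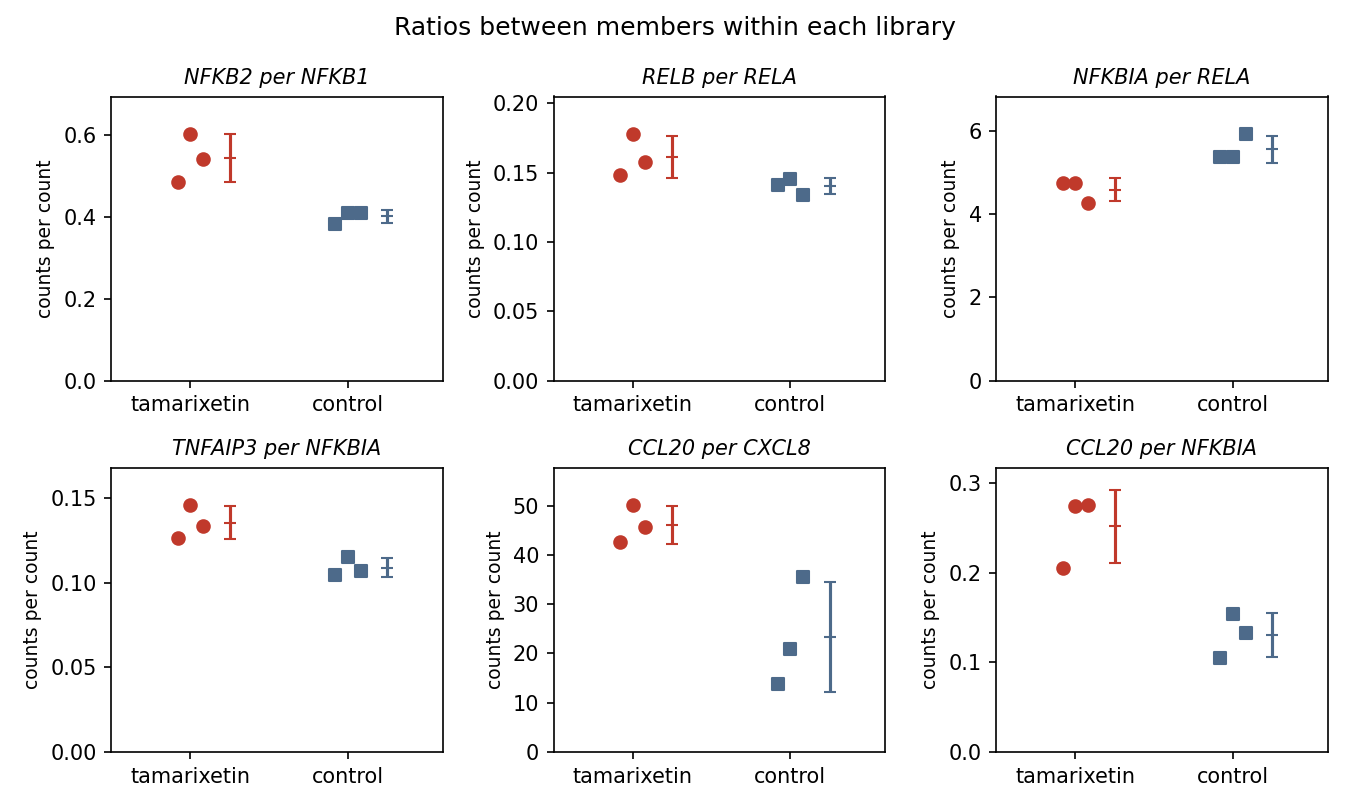
Ratios of counts between 2 members within each library, from 0 on the y axis; circles are tamarixetin cultures, squares control cultures, and the bars beside them give mean ± SD (n = 3 each). In each panel the groups do not overlap; NFKBIA per RELA is lower and the other 5 ratios are higher in tamarixetin cultures.

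The rest of the pathway was read from 8 lists of 117 genes, none of them members and all found in the files, of which 80 were tested. Of these, 33 rose and 15 fell, 60% against 43.7% of all genes, with a median log2 fold change of 0.14. The lists were chosen with earlier results of these data known, and that share was not tested against other genes. By role, beside 43.7% of all genes, the called share of tested genes was 31.6% in adaptors and ubiquitin ligases and 40% in other IkB proteins. It was 50% in kinases, 50% in other brakes, 66.7% in other chemokines and cytokines, 80% in receptors and 94.7% in other targets. The lists are given below by role, with up to 4 genes of smallest p in each.

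Among receptors, 7 of 10 tested rose and 1 fell, with a median log2 fold change of 0.55, and 7 more were not tested, the toll-like receptors TLR1 to TLR6 among them. TNFRSF21 (death receptor 6) had 350 ± 13.0 CPM in tamarixetin and 123 ± 4.56 CPM in control cultures (log2 fold change 1.50, edgeR adjusted p = 3.10e-54). IL6R, the interleukin-6 receptor, which signals mainly through STAT3, rose by 1.25, TNFRSF12A, the TWEAK receptor, by 0.96 and LTBR, the lymphotoxin receptor, by 0.91. The fall was in IL1RAP, the shared chain of the IL-1 receptor, by 0.43 on the log2 scale. It was named after its value was seen, and lost its call without tamarixetin replicate 2 (edgeR adjusted p = 0.0569) or 3 (0.0561).

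Of 19 adaptors and ubiquitin ligases tested, 6 rose and none fell, 31.6% against 43.7% of all genes, and 13 did not pass. Those of smallest p were TAB3 (log2 fold change 1.09), which ties TAK1 to ubiquitin chains, RIPK2 (0.87), the kinase behind NOD receptors, RBCK1 (0.50), a part of the linear ubiquitin ligase, and IRAK1 (0.36), a kinase of the IL-1 and toll-like receptors. TAB3 had 61.3 ± 2.59 CPM in tamarixetin and 28.8 ± 0.859 CPM in control cultures.

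Of 8 kinases tested, 3 rose and 1 fell. CHUK, which encodes the kinase IKK-alpha, rose by 0.37 on the log2 scale, TBK1 by 0.54 and MAP3K8 by 0.69, while MAP3K3 fell by 0.44. The CHUK groups overlapped, with 26.7 CPM in tamarixetin replicate 3 and 27.7 CPM in control replicate 2. MAP3K8 was lost without tamarixetin replicate 2 (edgeR adjusted p = 0.0752) or control replicate 1 (0.104). IKBKB, which encodes the kinase IKK-beta, had 13.2 ± 0.671 CPM in tamarixetin and 12.6 ± 0.564 CPM in control cultures and did not pass (adjusted p = 0.687). IKBKB was named after its values were seen.

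Of 5 other IkB proteins, 2 rose. NFKBIB, which encodes IkB-beta, had 34.4 ± 1.29 CPM in tamarixetin and 26.9 ± 2.02 CPM in control cultures (log2 fold change 0.35, edgeR adjusted p = 0.000405). It thus went the opposite way to NFKBIA. The nuclear IkB protein gene NFKBID rose by 1.14 from few counts, 25, 24 and 19 in tamarixetin cultures, against 9, 12 and 10 in control cultures, and its call was lost without tamarixetin replicate 1 or 2 or control replicate 1 or 3 (adjusted p from 0.0627 to 0.0921). NFKBIZ (-0.32) and BCL3 (0.18) did not pass, though NFKBIZ did without control replicate 3 (adjusted p = 0.0239). The fifth subunit, REL, had 34.8 ± 3.15 CPM in tamarixetin and 36.7 ± 2.92 CPM in control cultures and did not pass (adjusted p = 0.453).

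Other brakes split, with 2 higher and 4 lower of 12. COMMD1, which helps remove RELA from chromatin, fell by 0.28 on the log2 scale, and CYLD, a deubiquitinase, by 0.39. TAX1BP1 (0.14) and ITCH (0.26), which work with A20, rose, although ITCH lost its call without tamarixetin replicate 1 (edgeR adjusted p = 0.0617) or control replicate 3 (0.0531).

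Most other chemokines and cytokines had too few counts. Of 25, only 6 had enough counts to be tested, and CXCL1, CXCL2, CXCL3, CCL2, IL6 and TNF were among the untested. The highest group mean among all 19 untested was that of CCL5, the T cell chemokine RANTES, at 0.605 CPM in tamarixetin and 0.151 CPM in control cultures. Its counts were 8, 10 and 7 in tamarixetin cultures, against 2, 0 and 5 in control cultures, without overlap, and it was named after its values were seen. Of the tested, 1 rose and 3 fell. CX3CL1, the membrane-bound chemokine fractalkine, had 62.0, 57.7 and 51.4 CPM in tamarixetin cultures, against 101.2, 95.8 and 101.6 CPM in control cultures. It fell by 0.80 on the log2 scale (edgeR adjusted p = 3.67e-22), opposite to CCL20. TNFSF10, the death ligand TRAIL, fell by 1.20 and LTB, a lymphotoxin chain, by 1.43, with 7 to 14 LTB counts in tamarixetin and 27 to 35 in control cultures. CSF1, the macrophage growth factor, rose by 1.08.

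Of 19 other targets tested, 12 rose and 6 fell, with a median log2 fold change of 0.35. Those that fell were C3 (-0.29), IL1RN (-0.62), CFLAR (-0.25), CD83 (-1.21), STAT5A (-0.71) and SDC4 (-0.12), named after their values were seen. Among those that rose, MMP9 had 10, 9 and 67 counts in tamarixetin cultures, against 18, 1 and 19 in control cultures. Its groups overlapped and tamarixetin replicate 3 alone stood apart, and it was named after its values were seen. IER3, an early stress gene, had 589 ± 29.8 CPM in tamarixetin and 321 ± 14.5 CPM in control cultures (0.88). KLF6, a zinc-finger factor, rose by 0.99, GADD45B, a stress and survival gene, by 1.58 and CCND1, the G1 cyclin, by 0.40. These genes also answer to other factors, such as MAP kinase-driven ones, and their change does not report on NF-kB alone. The acute phase genes SAA1, SAA2, CRP and LCN2 and the adhesion genes VCAM1 and SELE were not tested, with a highest group mean of 0.243 CPM (LCN2 in control cultures).

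**Figure D5:**
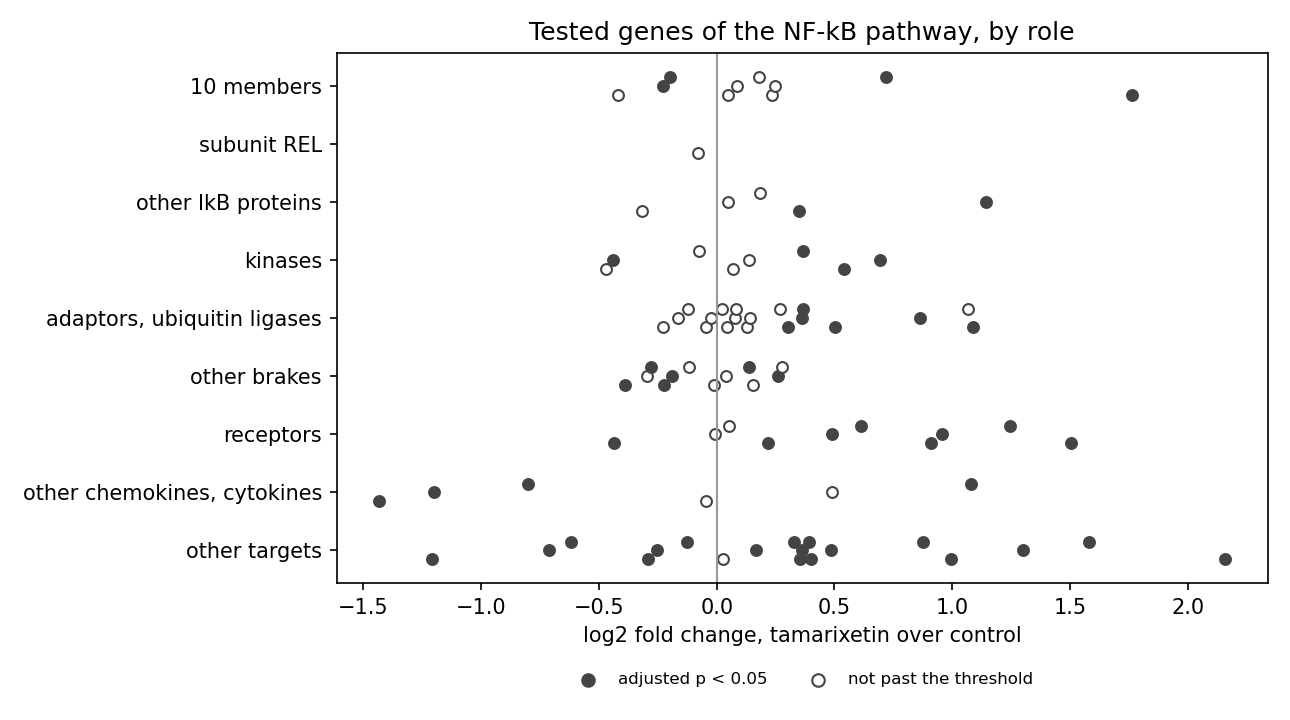
Log2 fold changes, tamarixetin over control, of the 10 members and the 80 tested genes of 8 pathway lists, 1 row per role; filled points passed an adjusted p of 0.05. Receptors lie mostly right of zero (7 of 10 higher), and the other chemokines and cytokines mostly left (3 of 6 lower).

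For each called member the 3 genes with the closest profile were taken from 8638 genes with at least 10 CPM, by the Euclidean distance of log2 CPM, centred on the gene mean, over the 6 libraries. NFKB1 lay closest to PSPC1 (distance 0.0378), SMC3 and GLO1, and NFKBIA to ELOVL2 (0.0548), BRD8 and SPG7. CCL20 lay closest to PELO (0.104), ARRDC3 and HSPA1B (0.185), which has a near-identical copy. TNFAIP2 lay closest to HSPA12A (0.379), AKR1C2 (0.421), which has close paralogs that can share reads, and ZBTB38. None of these is in the pathway lists.

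Total counts were 11980585 to 15454815 in tamarixetin and 12131365 to 16168855 in control libraries, and the members took 0.0684% to 0.0704% of them in all 6. The mitochondrial 12S ribosomal RNA RNR1 took 0.563% to 0.585% of counts in tamarixetin and 1.63% to 1.67% in control libraries, and its part in the member results was not tested. All 9 hepatocyte and HepG2 markers were expressed, and all 9 were lower in tamarixetin cultures, with summed levels of 9219.8 to 9479.9 CPM in tamarixetin and 16009.8 to 16619 CPM in control libraries. Their part in the member results was not tested. Of 8 leukocyte markers, CD3E was at 0 in all libraries and PTPRC at most 0.188 CPM. CD68 had 13.1 to 15.2 CPM in tamarixetin and 11.3 to 13.8 CPM in control libraries and did not pass. CD14 fell by 2.07 on the log2 scale, from 1.92 CPM in control to 0.432 CPM in tamarixetin cultures (edgeR adjusted p = 0.000111). The sum of the 8, 766 to 823 CPM in tamarixetin and 909 to 1011 CPM in control libraries, was almost all LYZ. Of 4 endothelial markers, whose sum was at most 1.90 CPM in tamarixetin and 1.42 CPM in control libraries, KDR was at 0 throughout. The 5 fibroblast and stellate markers summed to 88.5 to 95.0 CPM in tamarixetin and 105.1 to 106.2 CPM in control libraries.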

How the data were processed

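RNA of 3 tamarixetin and 3 control HepG2 cultures was sequenced from the 3′ end (Lexogen QuantSeq V2 forward kit, per the labels' protocols). The submitters' processing notes name GRCh38 and the tools featureCounts 2.0.6, STAR 2.7.10b and fastp 0.23.1. Annotation release, strand setting and any molecular identifiers are not stated there. The authors deposited 1 table of unnormalised counts by gene symbol for each library. Genes were filtered with filterByExpr, scaled with TMM and tested in edgeR 4.0.16 (R 4.3.3) by quasi-likelihood, group as the only term, adjusted over 13198 genes at a threshold of 0.05. SE is the log2 fold change over the square root of F, and 95% intervals use the test's degrees of freedom. These were 95.4, mostly borrowed across genes, so that the intervals do not rest on the 6 libraries of a gene alone. On simulated counts of this comparison, 12928 genes were tested and 50 were changed at each fold tried. The test recovered 56% of genes changed 1.25-fold and 90% of those changed 2-fold, with 15 false calls. Far fewer genes were changed there than the 43.7% called in the data, so these rates need not hold for the data. Within a group, chi-square per gene between libraries was 2.33 to 3.40, above sampling noise. Members and lists were chosen with earlier results of these data known. All members are named, and up to 4 genes of smallest p per list. Same-numbered cultures did not deviate together (correlations -0.041 to -0.0089), so no pairing was used. Alternatives were other scalings, filters, DESeq2 1.42.0, limma-voom (limma 3.58.1), a replicate block and leaving out each library.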

Additional observations from a re-analysis of the deposited data

How the results depend on the processing

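The count of called members was 3 or 4 under all 14 alternatives, and no fold change of a member changed sign. Nor did that of any pathway gene followed under the alternatives. MMP9, CCL5 and the other targets that fell were not among these. Members called lower numbered 1 in place of 2 with library size alone, without the low-count filter and in DESeq2, and 1 to 2 when a library was left out, each time by the loss of NFKB1. Members called higher numbered 1 with at least 5 CPM in 3 libraries, where TNFAIP2 and CXCL8 were not tested. With the replicate block, 5735 genes and 4 members were called, against 5771 and 4 without it, and no member's call changed. The numbers pair no samples by the labels, and same-numbered cultures did not correlate. Scaling by library size alone or upper quartile moved the median of all genes by 0.035 or -0.035 on the log2 scale. Depth limits CXCL8 and TNFAIP2 most: counting alone gives 19.1% and 12.4% variation per tamarixetin library and 16.4% and 22.5% per control library. The ratios kept their sign when any library was left out.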
